A study of Mus musculus with 2 samples.

Results

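The genes described here are 7 proteases that cut the extracellular matrix, the matrix metalloprotease genes Mmp2, Mmp3, Mmp13 and Mmp14 and the ADAMTS genes Adamts1, Adamts4 and Adamts5, together with 3 genes of their tissue inhibitors, Timp1, Timp2 and Timp3. These 10 genes were chosen by symbol and looked up by NCBI gene number among 17215 listed genes, and all 10 were found. Their mRNA levels come from RNA sequencing of MC3T3-E1, a mouse line of pre-osteoblasts cloned from calvaria and grown here with formaldehyde, a reactive aldehyde that crosslinks protein and DNA. One group was exposed to 300 µM formaldehyde and the other to 100 µM, with 1 library each. The time of exposure is not given in the labels, both groups received formaldehyde, and unexposed cells were not analysed here. Values are FPKM, which counts fragments per kilobase of transcript relative to all mapped fragments, so levels may be compared between genes of different length. With 1 library per dose there is no spread between replicates, and no p-value was computed.

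Matrix metalloproteases are zinc enzymes that are made as inactive precursors and cut collagens and other matrix proteins once their propeptide is removed. ADAMTS proteases are secreted zinc enzymes with thrombospondin repeats, several of which cut the proteoglycans aggrecan and versican. TIMPs bind the active site of the enzymes they inhibit one to one, and they differ in which of these enzymes they inhibit. In bone, osteoblasts and osteocytes use MMP13 and MMP14 to remodel the collagen matrix that osteoblasts lay down.

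Promoter sequences are shown for 2 protease genes of the same cluster of which one was detected and the other was listed at 0, Mmp13 and Mmp3, and for 2 members that were lower at the higher dose, Adamts1 and Timp3. They are RefSeq windows of 250 bases before to 50 bases after the start of each gene on mouse GRCm38.p6, which held such a window for 7 of the 10 members. Capitals mark 4 short motifs, searched on both strands: TATAAA (the TATA box), TGAGTCA or TGACTCA (the AP-1 site), ACCACA (the core of the Runx site) and GGGCGG (the GC box). No match overlaps another in the sequences printed.
Mmp13, chr9:7272264-7272563, + strand: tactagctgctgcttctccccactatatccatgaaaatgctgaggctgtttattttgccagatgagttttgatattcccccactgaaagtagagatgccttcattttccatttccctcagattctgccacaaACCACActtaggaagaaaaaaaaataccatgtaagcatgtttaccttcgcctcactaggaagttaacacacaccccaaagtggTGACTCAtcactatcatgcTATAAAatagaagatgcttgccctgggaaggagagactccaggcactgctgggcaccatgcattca
Mmp3, chr9:7445572-7445871, + strand: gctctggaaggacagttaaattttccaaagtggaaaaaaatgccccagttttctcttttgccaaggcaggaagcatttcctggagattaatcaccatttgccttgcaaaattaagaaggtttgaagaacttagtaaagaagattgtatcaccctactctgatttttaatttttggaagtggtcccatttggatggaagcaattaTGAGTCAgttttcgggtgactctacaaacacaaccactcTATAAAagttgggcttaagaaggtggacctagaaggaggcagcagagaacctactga
Adamts1, chr16:85803064-85803363, - strand: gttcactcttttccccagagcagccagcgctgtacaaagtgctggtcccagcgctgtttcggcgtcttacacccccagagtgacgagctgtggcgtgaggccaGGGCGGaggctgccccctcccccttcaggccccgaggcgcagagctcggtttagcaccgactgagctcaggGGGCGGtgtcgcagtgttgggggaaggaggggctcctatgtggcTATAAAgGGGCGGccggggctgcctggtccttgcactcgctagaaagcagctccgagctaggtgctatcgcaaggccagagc
Timp3, chr10:86300162-86300461, + strand: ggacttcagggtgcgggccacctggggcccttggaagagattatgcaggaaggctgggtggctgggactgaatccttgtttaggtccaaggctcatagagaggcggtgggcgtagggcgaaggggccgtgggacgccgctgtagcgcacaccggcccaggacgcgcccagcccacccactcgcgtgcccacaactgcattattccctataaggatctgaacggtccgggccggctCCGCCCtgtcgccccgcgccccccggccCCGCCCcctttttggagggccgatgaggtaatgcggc
The windows of Mmp13 and Mmp3 each hold 1 AP-1 match, at 35 bases (Mmp13) and 46 bases (Mmp3) before the start. Each also holds 1 TATAAA, whose first base lies 16 bases (Mmp13) and 7 bases (Mmp3) before the start, against 32 bases in Adamts1. That of Mmp13 also holds ACCACA. Adamts1 has 3 matches to GGGCGG, and Timp3 has 2. Of the windows not printed, that of Mmp14 holds 1 ACCACA and 2 GGGCGG, and those of Timp1 and Timp2 hold 1 GGGCGG each. Among 32851 mouse promoter windows of this length, 13.6% hold TATAAA, 5.20% an AP-1 match, 16.8% ACCACA and 35.7% GGGCGG. These matches describe the letters only, and binding was not measured.

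The cells carried osteoblast transcripts at both doses. Of 12 osteoblast markers, 11 averaged 1 FPKM or more, with Col1a1 at 1714 FPKM at 300 µM, against 2065 FPKM at 100 µM, and Sp7 (osterix) at 9.47 FPKM at 300 µM, against 7.21 FPKM at 100 µM, but Alpl (alkaline phosphatase) at 1.06 FPKM at 300 µM, against 0.98 FPKM at 100 µM. Of the 11, Dlx5, an osteoblast transcription factor gene, was the 1 at least 2-fold lower, at 7.04 FPKM at 300 µM, against 32.9 FPKM at 100 µM. The other marker, Bglap (osteocalcin), stood at 0.49 FPKM at 300 µM and was listed at 0 at 100 µM. Summed levels of 4 endothelial markers were 0.10 FPKM at 300 µM, against 0.12 FPKM at 100 µM, and of 4 epithelial markers 0.27 and 0.11 FPKM in the same order. Of 9 macrophage and osteoclast markers, Adgre1 and Acp5 were listed at 0 in both libraries, and the list summed to 72.1 FPKM at 300 µM, against 57.5 FPKM at 100 µM. Most of that sum was Ctsk (cathepsin K), at 44.4 FPKM at 300 µM, against 41.2 FPKM at 100 µM. Lyz2 stood at 26.5 FPKM at 300 µM, against 13.2 FPKM at 100 µM, and Cd68 the other way, at 0.77 and 2.57 FPKM. The 5 chondrocyte markers summed to 361 FPKM at 300 µM, against 383 FPKM at 100 µM, with Acan at 0 in both. Most of it was Col2a1, at 350.1 FPKM at 300 µM, against 322 FPKM at 100 µM, while Sox9 was lower, at 9.78 FPKM at 300 µM, against 61.4 FPKM at 100 µM. Adipocyte markers summed to 1.48 FPKM at 300 µM, against 5.14 FPKM at 100 µM, and muscle markers to 10.6 and 3.58 FPKM. The part of these markers in the results was not tested. The libraries held about 19200000 fragments at 300 µM and 18400000 at 100 µM, as read from the steps of the low values.

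Mmp2 and the TIMPs were the abundant members. At 300 µM the order of levels was Timp1, Timp2, Mmp2, Timp3, Mmp14, Adamts1, Mmp13, Adamts4, Adamts5 and Mmp3. The order at 100 µM differed only among the 3 least abundant members detected, where Adamts5 stood above Mmp13 and Adamts4. Counting intervals of Adamts4 and Adamts5 at 300 µM overlapped, as did those of Mmp13 and Adamts4 at 100 µM. Timp1 was the 155th most abundant of all genes at 300 µM and the 107th at 100 µM, and Mmp2 the 211th at 300 µM and the 218th at 100 µM.

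**Figure D1:**
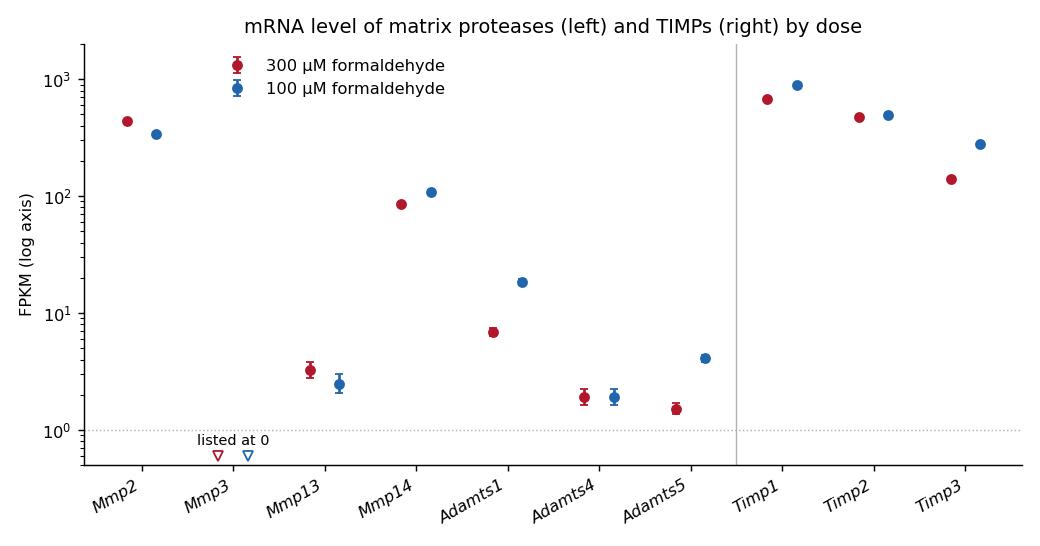
Level of each member in FPKM on a log axis, 1 library per dose, with 300 µM (red) left of 100 µM (blue); bars are approximate 95% Poisson intervals from estimated reads and cover counting error only. The TIMPs, Mmp2 and Mmp14 stand at 85.9 FPKM or higher, the ADAMTS genes and Mmp13 at 18.6 FPKM or lower, and Mmp3 is listed at 0 at both doses (open triangles below the axis range of the other genes).

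For 10123 genes the 2 libraries averaged 1 FPKM or more, and these were compared. They were called lower or higher when log2((FPKM at 300 µM + 1)/(FPKM at 100 µM + 1)) reached 2-fold. Of the members, 9 passed that level, all but Mmp3. Of these 9, 3 were at least 2-fold lower at 300 µM (Adamts1, Adamts5 and Timp3), 0 were at least 2-fold higher and 6 lay between. The background was 29.9% of all compared genes lower and 6.09% higher, so the members' share of 33.3% lower is close to that of all genes. In RNA from whole cultures, fewer cells that express a gene and less of its mRNA per cell cannot be told apart. The median log2 ratio was -0.34 over the 9 members and -0.30 over all compared genes. Shares of all genes depend on the scale: 22.3% were lower and 14.5% higher after centring on the median gene, 22.8% and 16.7% with a trimmed-mean (TMM) factor, and 38.0% and 2.16% on a scale of equal summed FPKM.

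**Figure D2:**
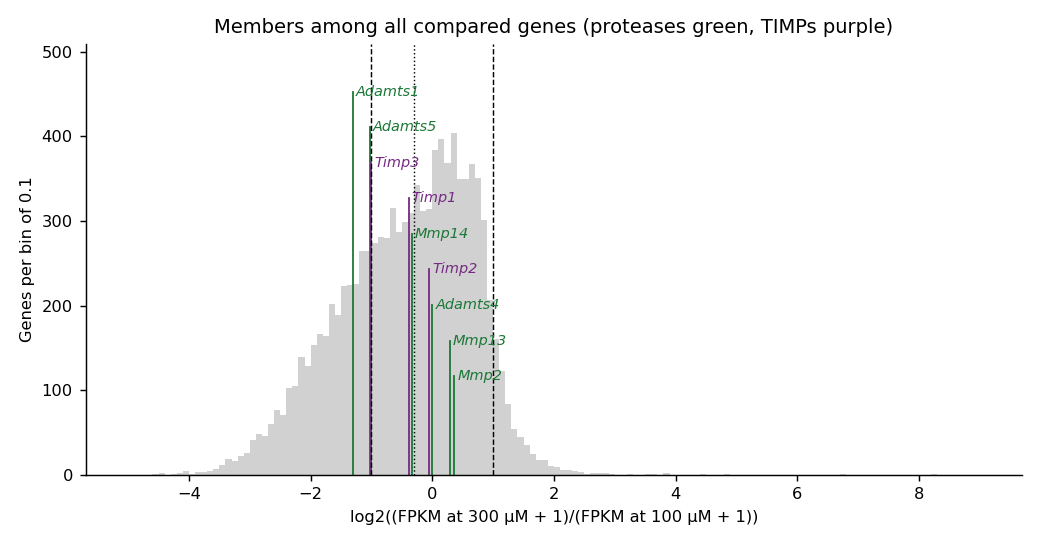
Histogram of the log2 ratio of 300 µM over 100 µM for the 10123 compared genes (grey, bins of 0.1), with the 9 compared members as labelled lines whose heights only separate the names. Dashed lines mark 2-fold and the dotted line the median of -0.30; Adamts1, Adamts5 and Timp3 lie at or past the lower dashed line and no member reaches the upper one.

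The gelatinase gene Mmp2, whose product cuts denatured collagen and basement membrane collagen, stood at 436 FPKM at 300 µM, against 339 FPKM at 100 µM. The ratio was 1.29, with an approximate 95% binomial (Clopper-Pearson) interval of 1.26 to 1.31. That interval, like the others given here, rests on reads estimated from FPKM and transcript length, covers counting error only, and does not hold the variation between cultures. Mmp2 had the highest log2 ratio of the members (0.36), and 73.6% of compared genes had a lower one. Its sign turned on a scale of equal sums (-0.01). The 2 genes nearest to Mmp2 in level at both doses, by distance in log2(FPKM + 1) over the 2 libraries, were Phb2 (430 FPKM at 300 µM, against 347 FPKM at 100 µM) and Fmod (435 FPKM at 300 µM, against 348 FPKM at 100 µM).

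Mmp14, a membrane-anchored collagenase that removes the propeptide of MMP2 with TIMP2 as adaptor, stood at 85.9 FPKM at 300 µM, against 109 FPKM at 100 µM. The ratio was 0.789 (counting interval 0.758 to 0.822), a log2 ratio of -0.34 that became 0.05 with the TMM factor. Within each library Mmp14 amounted to 0.197 of Mmp2 at 300 µM and 0.321 of it at 100 µM. These levels within a library do not depend on how the libraries are scaled.

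Mmp13, the main interstitial collagenase of the mouse skeleton, stood at 3.25 FPKM at 300 µM, against 2.49 FPKM at 100 µM. The ratio was 1.31, with a wide counting interval of 1.02 to 1.66 from about 167 and 123 reads. Its log2 ratio of 0.28 ranged from 0.01 to 0.59 over the scales and pseudocounts tried. Mmp3 (stromelysin), which cuts proteoglycans and activates other MMPs, was listed at 0 FPKM in both libraries. Here 3 reads would have amounted to 0.0866 FPKM at 300 µM, against 0.0904 FPKM at 100 µM.

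Mmp13 and Mmp3 lie in a run of 10 consecutive coding MMP genes on chromosome 9. Of these, 6 are listed in the tables and the others were not analysed here. Mmp13 was the 1 gene of the 6 that reached 1 FPKM at either dose. Mmp3, Mmp8 and Mmp27 were listed at 0 in both libraries, and Mmp12 and Mmp10 were listed at 0 at 300 µM and at 0.02 and 0.03 FPKM at 100 µM. Of the 50-base words of the Mmp3 transcript, 8.39% occur in transcripts of other genes, Mmp10 among them. For the other 9 members this share was at most 0.746%.

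The ADAMTS genes were less abundant and 2 of the 3 were lower at the higher dose. Adamts1, whose product cuts versican and aggrecan, stood at 6.91 FPKM at 300 µM, against 18.6 FPKM at 100 µM. The ratio was 0.372 (counting interval 0.339 to 0.408), with a log2 ratio of -1.31, the lowest among the members, although 22.1% of compared genes had a lower one. The log2 ratio of Adamts1 stayed negative under every scale and pseudocount tried, from -1.63 to -0.96. The genes nearest to it in level at both doses were Wdr3 (7.09 FPKM at 300 µM, against 18.4 FPKM at 100 µM) and Rock2 (6.73 FPKM at 300 µM, against 18.8 FPKM at 100 µM).

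Adamts5, an aggrecanase gene that is the major one in mouse cartilage, stood at 1.52 FPKM at 300 µM, against 4.12 FPKM at 100 µM. The ratio was 0.369 (counting interval 0.322 to 0.420), close to that of Adamts1, while the log2 ratio of -1.02 is smaller in size because the pseudocount of 1 weighs more on a low gene. Adamts1 was 4.55 times as abundant as Adamts5 at 300 µM and 4.51 times at 100 µM, and the counting interval of the change in that proportion was 0.861 to 1.18. Adamts1 and Adamts5 are consecutive coding genes on chromosome 16. The coding genes on either side differed from them: Cyyr1 was near 0 in both libraries (0.07 FPKM at 300 µM, against 0.08 FPKM at 100 µM), and N6amt1 stood at 23.4 FPKM at 300 µM, against 6.40 FPKM at 100 µM.

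Adamts4, the other classical aggrecanase gene, was listed at 1.92 FPKM at both doses, with a counting interval of 0.799 to 1.26 on the ratio. Its level rests on few reads, and a ratio of 1 lies within that interval.

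Among the inhibitors, in the values as deposited, Timp3 was lower at the higher dose, Timp2 was nearly level and Timp1 lay between. Timp3, which stays bound to the matrix and inhibits ADAMTS4 and ADAMTS5 as well as MMPs, stood at 139.6 FPKM at 300 µM, against 282 FPKM at 100 µM. The ratio was 0.496 (counting interval 0.485 to 0.506), and its log2 ratio of -1.01 lies just past the threshold. It stayed negative under every scale and pseudocount tried, from -1.38 to -0.62.

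Timp1, a secreted inhibitor of most MMPs that acts weakly on MMP14, stood at 682 FPKM at 300 µM, against 894 FPKM at 100 µM. The ratio was 0.763 (counting interval 0.744 to 0.782) and the log2 ratio -0.39, which shrank to -0.0017 with the TMM factor. With the trend in transcript length and GC content removed, the log2 ratio of Timp1 was -1.24, below the -0.67 of Timp3. Timp2, which inhibits MMP2 and MMP14 and also takes part in MMP2 activation, stood at 473 FPKM at 300 µM, against 489 FPKM at 100 µM. The ratio was 0.967 (counting interval 0.952 to 0.981), and the sign of its log2 ratio of -0.05 turned after centring on the median gene (0.25), with the TMM factor (0.34) and with the trend in transcript length and GC content removed (0.095). Timp1 and Timp3 lie within synapsin genes on the opposite strand: Syn1 stood at 1.24 FPKM at 300 µM, against 2.95 FPKM at 100 µM, and Syn3 at 0.06 and 0.12 FPKM. Timp2 overlaps Cep295nl on the same strand, at 2.42 FPKM at 300 µM, against 2.70 FPKM at 100 µM. The sources used here do not say that reads were counted by strand, so reads of overlapping genes may not have been told apart.

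Set against each other, the inhibitor transcripts outweighed the protease transcripts at both doses, by less at 300 µM. The 7 proteases summed to 536 FPKM at 300 µM, against 475 FPKM at 100 µM, and the 3 TIMPs to 1295 FPKM at 300 µM, against 1665 FPKM at 100 µM. Protease transcripts thus amounted to 0.414 of TIMP transcripts at 300 µM and 0.285 of them at 100 µM, a proportion 1.45 times as high at 300 µM (counting interval 1.42 to 1.48). Both sums moved: that of the proteases at 300 µM was 1.13 times that at 100 µM, and that of the TIMPs 0.778 times. The proportion was higher at 300 µM only with Mmp2 in the sum: it was 0.941 of that at 100 µM without Mmp2, but still 1.42 times as high without Timp1. Mmp2 made up 81.4% of the protease sum at 300 µM and 71.4% at 100 µM, and Timp1 52.7% of the TIMP sum at 300 µM and 53.7% at 100 µM. Without both genes the proportion at 300 µM was 0.921 of that at 100 µM.

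**Figure D3:**
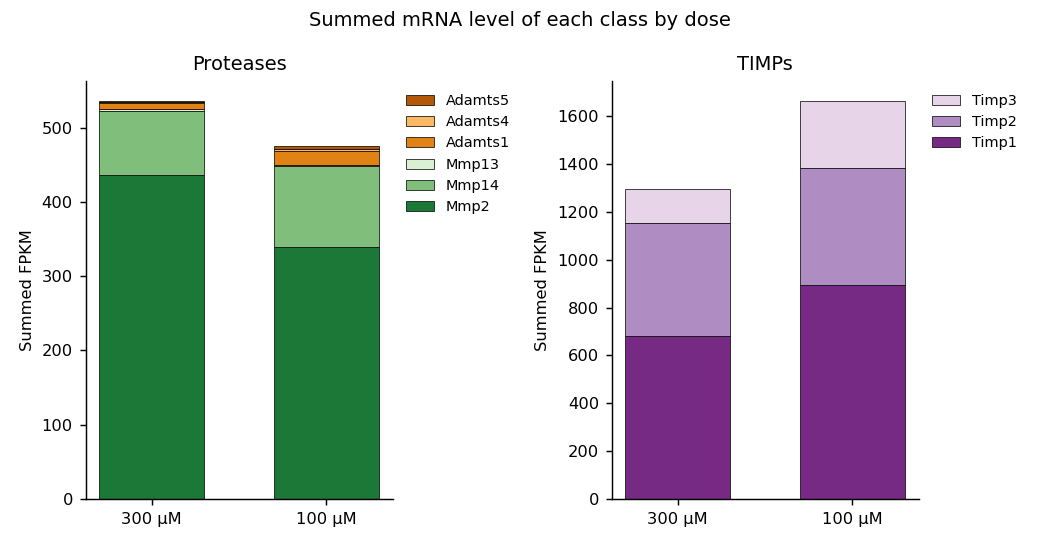
Summed FPKM of the proteases (left panel) and the TIMPs (right panel, with a longer axis), 1 library per bar, 300 µM left of 100 µM; Mmp3 is at 0 and has no segment. The protease bars reach 536 FPKM at 300 µM, against 475 FPKM at 100 µM, with Mmp2 the largest segment, and the TIMP bars reach 1295 and 1665 FPKM in the same order.

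Enzyme and inhibitor pairs differed in direction. Mmp2 reached 0.923 of Timp2 at 300 µM and 0.693 of it at 100 µM, a change of 1.33 times (1.30 to 1.36). Mmp14 amounted to 0.182 of Timp2 at 300 µM and 0.222 of it at 100 µM, a change of 0.816 times (0.782 to 0.852). For the ADAMTS genes and Timp3, which were both lower, the summed ADAMTS level was 0.0742 of Timp3 at 300 µM and 0.0874 of it at 100 µM (0.848 times, 0.786 to 0.915). Most of that sum is Adamts1. For Adamts4 and Adamts5 alone the direction was the opposite, 0.0246 of Timp3 at 300 µM and 0.0215 of it at 100 µM (1.15 times, 1.02 to 1.30). Timp1 was 4.89 times as abundant as Timp3 at 300 µM and 3.18 times at 100 µM. That direction depends on the trend with transcript length described below. With the trend in length and GC content removed, Timp1 had a log2 ratio of -1.24 and Timp3 one of -0.67, so Timp1 was then the lower.

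The 3 members called lower have long transcripts. Adamts5 (10.8 kb), Adamts1 (4.88 kb) and Timp3 (4.72 kb) are the longest of the 10 in GENCODE release M21, and Timp1 (0.883 kb) is the shortest. Their 3' untranslated regions, of 6437, 1574 and 3604 bases, hold 21 (Adamts5), 6 (Adamts1) and 8 (Timp3) copies of the pentamer AUUUA, an element often found in unstable mRNAs. The median compared gene has 1050 bases there and 1 copy. Mmp13 also has 6 copies, Adamts4 has 4, and Mmp2 and Mmp3 have 1 each, while Mmp14, Timp1 and Timp2 have 0. Next in length come Adamts4 (4.39 kb) and Timp2 (3.71 kb), with 3' untranslated regions of 1458 and 2630 bases. Neither was called lower, with log2 ratios of 0 (Adamts4) and -0.05 (Timp2).

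Across all compared genes the ratio went with length, so the members were also read against that trend. The median log2 ratio was 0.40 over the 2526 genes with the shortest transcripts (up to 1921 bases) and -0.94 over the 2522 with the longest (from 4472 bases), of which 47.5% were called lower. With the trend in length and GC content removed, Adamts5 had a log2 ratio of -0.20, Timp3 -0.67 and Adamts1 -0.98, so that none of the 3 reached 2-fold. Timp1, low for so short a transcript, reached -1.24 and was then the 1 member called lower. By the number of AUUUA copies, the median was 0.15 over 3198 genes with 0 copies and -0.98 over 1003 genes with 8 or more, whose untranslated regions are also longer (median 372.5 and 3720 bases in that order).

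**Figure D4:**
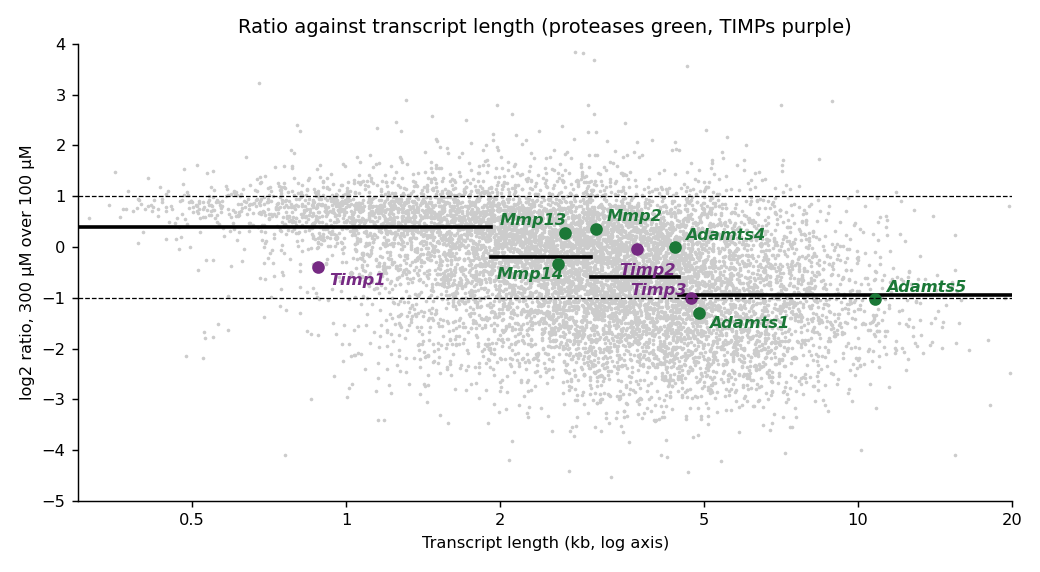
Log2 ratio of 300 µM over 100 µM against transcript length on a log axis for compared genes between 0.3 and 20 kb (grey), with proteases in green and TIMPs in purple; black bars are medians of 4 groups of genes by length and dashed lines mark 2-fold. Adamts1, Adamts5 and Timp3 sit near the low bar of the longest group, and Timp1 lies well below the bar of the shortest group at 0.40.

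**Figure D5:**
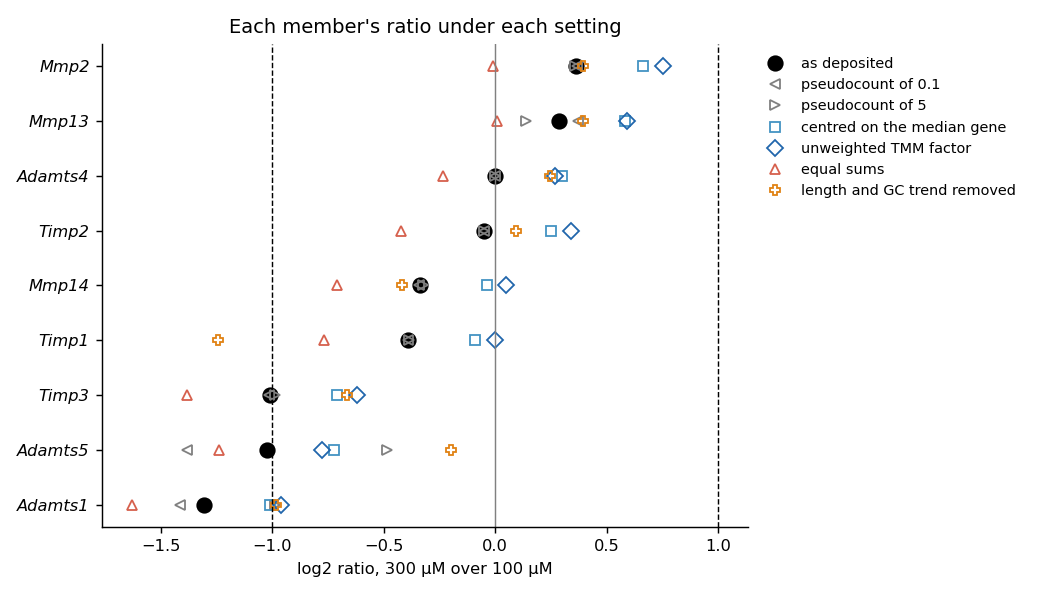
Log2 ratio of 300 µM over 100 µM for the 9 compared members as deposited (black) and under each alternative pseudocount, scale or trend correction (open symbols); dashed lines mark 2-fold. Adamts1, Adamts5 and Timp3 lie below 0 under every setting drawn, and Timp1 passes the lower dashed line only with the length and GC trend removed.

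The rest of both protease families was sparse. Of 19 other MMP genes 14 were listed and 5 compared, with 0 at least 2-fold higher and 1 lower (median log2 ratio -0.40). That gene was Mmp28 (epilysin), at 2.29 FPKM at 300 µM, against 9.85 FPKM at 100 µM, while Mmp11 (stromelysin 3) stood at 7.31 FPKM at 300 µM, against 14.3 FPKM at 100 µM, and Mmp24 at 4.24 and 3.35 FPKM. Of 16 other ADAMTS genes 5 were compared, with 0 beyond 2-fold in either direction (median 0.06). Adamts2, the procollagen N-proteinase gene, stood at 16.2 FPKM at 300 µM, against 12.0 FPKM at 100 µM, Adamts10 at 4.34 and 4.12 FPKM, and Adamts12 at 1.18 and 1.66 FPKM. Adamts2 was thus the more abundant of Adamts1 and Adamts2 at 300 µM, and Adamts1 at 100 µM.

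Among genes that activate or clear the proteases, the share lower was close to that of all genes. Of the 9 genes compared, 3 passed 2-fold as lower and 0 as higher, with a median log2 ratio of -0.98, below the -0.30 of all compared genes. Furin, the proprotein convertase that cuts the prodomain of MMP14 and of ADAMTS proteases, stood at 3.49 FPKM at 300 µM, against 34.0 FPKM at 100 µM, a log2 ratio of -2.96. The convertase gene Pcsk7 stood at 3.05 FPKM at 300 µM, against 7.82 FPKM at 100 µM. Lrp1, an endocytic receptor that takes up MMPs, ADAMTS proteases and TIMPs, stood at 20.3 FPKM at 300 µM, against 46.0 FPKM at 100 µM. Those 3 genes were lower, but after centring on the median gene only 1 of the 9 passed 2-fold. The MMP inducer gene Bsg stood at 579 FPKM at 300 µM, against 401 FPKM at 100 µM, the urokinase receptor gene Plaur at 61.8 and 123 FPKM, and the hyaluronan receptor gene Cd44 at 51.6 and 102 FPKM.

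Other inhibitors had 0 of 6 higher and 1 lower (median log2 ratio -0.09). The cystatin C gene Cst3 stood at 522 FPKM at 300 µM, against 273 FPKM at 100 µM, and the collagen chaperone gene Serpinh1, a serpin without known inhibitory action, at 657 and 551 FPKM. The fourth TIMP gene, Timp4, was below the level compared, at 1.19 FPKM at 300 µM, against 0.38 FPKM at 100 µM.

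Transcription factors that act on MMP promoters split. Of 12, 3 were at least 2-fold higher and 4 lower (median -0.67), among them the AP-1 genes Fos (log2 ratio 2.62), Fosb (1.81) and Junb (1.30) on one side and Fosl2 (-3.50), Fosl1 (-1.42) and the Ets genes Ets2 (-2.36) and Ets1 (-2.32) on the other. Jun had 0.50. Runx2, the osteoblast factor whose core site word ACCACA occurs in the Mmp13 and Mmp14 windows, stood at 3.60 FPKM at 300 µM, against 7.99 FPKM at 100 µM.

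Of 14 compared genes of matrix proteins that these enzymes cut, 0 were higher and 2 lower. Their median was -0.04, against -0.30 over all compared genes, of which 6.09% were higher and 29.9% lower. Vcan (versican), a substrate of ADAMTS1, ADAMTS4 and ADAMTS5, stood at 4.01 FPKM at 300 µM, against 13.4 FPKM at 100 µM, and Tnc (tenascin C) at 25.1 FPKM at 300 µM, against 60.8 FPKM at 100 µM. Acan (aggrecan) was listed at 0 at both doses. Col1a2 stood at 2161 FPKM at 300 µM, against 2336 FPKM at 100 µM, and Bgn (biglycan) at 1478 and 1146 FPKM.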

How the data were processed

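The authors deposited 1 table of FPKM per library, rounded to 2 decimals, per the file headers. The submitters' processing notes name RSEM and Bowtie2; the sources used here give no versions, genome build or annotation. Because FPKM is scaled within a library, a larger share held by a few abundant transcripts lowers the values of the rest. Symbols were matched by NCBI gene number to RefSeq genes of GRCm38.p6 (17179 of 17215). The members and gene lists were chosen with earlier results of these data known.

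Ratios are log2((FPKM at 300 µM + 1)/(FPKM at 100 µM + 1)) where the libraries averaged 1 FPKM or more. Depth came from genes with 1 annotated transcript, whose FPKM times length falls on steps of 1 read. The steps were 52 bases at 300 µM, where 150 of 235 low values (63.8%) were whole to within 0.12 reads, and 54.25 bases at 100 µM, where 179 of 276 were (64.9%). Each step was the one, of many tried, with the largest such share. An even spread gives 24% for 1 fixed step, so that value is too low a yardstick for the best step. Counting intervals use 1 representative GENCODE M21 transcript per gene, and 95% limits on proportions of sums use a normal approximation on the log scale. The comparison steps were tested on simulated data with counting error only, as many genes raised as lowered, and no trend with length. That test therefore does not cover the shift in scale or the length trend between these 2 libraries.

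All members are named. From each of the other lists, genes at least 2-fold changed (up to 3 each way) and the 3 most abundant are named, as are the 2 nearest genes in level to the members with the highest and lowest ratio. Marker genes, genes that overlap or neighbour a member, Timp4, Fosl1 and Runx2 were named after their values were seen. Some genes that this rule would name are not reported here. The alternatives changed the pseudocount (0.1 or 5), the filter (none, or an average of 10 FPKM or more), the fold (1.5 or 3) or the scale (centring on the median gene, an unweighted TMM factor (30% of ratios and 5% of levels trimmed at each end), or equal sums), or removed the trend in transcript length and GC content. Software was Python 3.11.15 with scipy 1.17.1, pandas 2.3.3, numpy 2.4.6 and, for figures, matplotlib 3.10.9.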

Additional observations from a re-analysis of the deposited data

How the results depend on the processing

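No paired analysis was possible because each dose has 1 library. The count of members at least 2-fold higher was 0 under every alternative run. The 3 members lower became 0 with a pseudocount of 5, 0 with the TMM factor, 0 at 3-fold, 1 after centring (Adamts1) and 1 with the length and GC trend removed (Timp1); among genes averaging 10 FPKM or more 2 were lower, and 3 under the other alternatives. Over all 10123 compared genes, 3022 were lower, against 1631 with a pseudocount of 5 and 1653 at 3-fold. The count lower was 4209 at 1.5-fold, 3847 with equal sums and 3422 with a pseudocount of 0.1. After centring it was 2261, and with TMM 2310. The 616 higher became 258 with a pseudocount of 5, 834 with one of 0.1, 1472 after centring and 1694 with TMM. They became 219 with equal sums, 1901 at 1.5-fold and 123 at 3-fold. Among the 5340 genes averaging 10 FPKM or more, 1141 (21.4%) were lower and 358 (6.70%) higher. The main comparison had 29.9% lower and 6.09% higher. The median log2 ratio of the 6 compared proteases, -0.17, was 0.13 after centring, 0.16 with TMM, -0.47 with equal sums and 0.023 with the trend removed. That of the 3 TIMPs, -0.39, was -0.090, -0.0017, -0.77 and -0.67 in that order. The proportion of protease to TIMP transcripts, 1.45 times as high at 300 µM, was 0.921 without Mmp2 and Timp1, 0.941 without Mmp2 and 1.42 without Timp1 (both chosen after seeing the data), 1.14 with the mean of log2(FPKM + 1) in place of the sum, and 1.41 over all 37 listed MMP and ADAMTS genes against 4 TIMPs; scaling of a whole library cannot move it. Adamts4, Mmp13 and Adamts5 rest on about 123 to 820 reads per library, so their counting intervals are the widest.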

Other observations

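Of 8 compared genes of the membrane-bound ADAM proteases, which shed growth factors and cytokines from the cell surface, 0 were at least 2-fold higher at 300 µM and 2 were lower (median log2 ratio -0.07). Adam19 stood at 0.30 FPKM at 300 µM, against 9.62 FPKM at 100 µM, a log2 ratio of -3.03 that is lower than that of any of the 10 matrix protease and TIMP genes. Adam10, a sheddase that also cuts Notch receptors, stood at 5.89 FPKM at 300 µM, against 16.2 FPKM at 100 µM. Adam9 stood at 31.5 FPKM at 300 µM, against 36.0 FPKM at 100 µM, Adam15 at 34.5 and 21.8 FPKM, and Adam23 at 12.6 and 12.1 FPKM.

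Of 3 compared genes of ADAMTS-like proteins, which lack the protease domain, 0 were beyond 2-fold (median -0.06). Adamtsl4 stood at 11.5 FPKM at 300 µM, against 13.9 FPKM at 100 µM, Adamtsl5 at 10.8 and 11.3 FPKM, and Adamtsl3 at 8.64 and 4.98 FPKM. Of 4 other compared metalloprotease genes 0 were beyond 2-fold (median -0.30), and Bmp1, the procollagen C-proteinase gene, stood at 36.5 FPKM at 300 µM, against 34.5 FPKM at 100 µM. Ece1 stood at 8.94 FPKM at 300 µM, against 16.8 FPKM at 100 µM, and Mme at 5.80 and 7.11 FPKM.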
